A study of Schizosaccharomyces pombe with 4 samples.

Results

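The 9 genes described here encode calcium signalling and transport proteins of fission yeast (Schizosaccharomyces pombe). They are the transcription factor gene prz1 (SPAC4G8.13c), the calcium sensor gene ncs1 (SPAC18B11.04), the kinase genes cmk1 (SPACUNK12.02c) and cmk2 (SPAC23A1.06c), the calcium pump genes pmc1 (SPAPB2B4.04c) and pmr1 (SPBC31E1.02c), the calcineurin subunit gene cnb1 (SPCC830.06), the calmodulin gene cam1 (SPAC3A12.14) and the channel gene cch1 (SPAC6F6.01). They were selected on their Y41F against WT counts and FPKM, being taken by identifier from a list drawn up with those values known, so their values in that comparison are a description. All 9 were found among the 5133 genes of the deposited tables, and all 9 passed the filter on low counts.

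RNA came from log-phase cultures in the rich medium YEA at 30 °C and was sequenced from 2 Y41F libraries and 2 wild type (WT) libraries. The Y41F libraries carry the strain names SPBB297 (library 1) and SPBB298 (library 2), and both WT libraries carry KOR3006. Y41F is a tyrosine-to-phenylalanine substitution; the labels do not name the protein, which from what is known of the study is histone H3. The labels give no full genotype for any strain, and nothing marks the WT libraries as separate cultures. Errors and p-values therefore measure only the spread among these 4 libraries, which can be technical in WT and takes in any strain difference in Y41F. Between the groups, the substitution and any other difference of strain cannot be told apart.

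In yeast, free calcium in the cytosol is kept very low. When it enters, through channels such as Cch1, it binds calmodulin, which activates the phosphatase calcineurin and calmodulin-dependent kinases. Calcineurin dephosphorylates the zinc-finger factor Prz1, which then enters the nucleus and switches on genes that remove calcium, among them pump genes.

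Totals were 23616464 and 22773955 expected counts in Y41F libraries 1 and 2, and 22260430 and 20845572 in WT libraries 1 and 2. The 9 genes had between 822 and 6663 counts per library, so counting error alone was small. All 36 of these counts were whole numbers, whereas between 3.88% and 4.23% of all genes per library had a fractional count, as the counting program gives where reads fit more than 1 place. Levels for comparing libraries are given as CPM, counts scaled with TMM to a common library size. Levels for comparing genes are given as the deposited FPKM, which also adjusts for length. The deposited FPKM does not follow from dividing by the listed length alone, and short genes stand higher than by that division.

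The genes prz1, ncs1 and cmk1 were about as far apart between the groups as each other, with levels 1.79, 1.82 and 1.81 times as high in Y41F as in WT. The pump genes pmc1 and pmr1 were 1.22 and 1.18 times as high, while cnb1, cam1, cch1 and the mean of cmk2 lay within 1.1 times of WT in either direction. In RNA from whole cultures, a change in every cell and a change in the share of cells with a high level cannot be told apart. No gene of the 9 was called by the quasi-likelihood test of edgeR at a Benjamini-Hochberg adjusted p under 0.05 over 5076 genes (adjusted p from 0.283 to 0.999), against 0.0197% of all genes, which is 1 gene. At an unadjusted p under 0.05 the same fit gave 4 of the 9, all higher in Y41F, against 4.91% of all genes higher.

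That count of 0 depended on the Y41F libraries and on the tool, and on whether the replicate number was used as a block, as given in the last section. DESeq2 called prz1, ncs1 and cmk1 higher (DESeq2 adjusted p = 2.32e-05, 0.000472 and 0.000525), where it called 1.22% of all genes higher. The same 3 genes were called by edgeR without Y41F library 1 (1.18% of all genes called higher) and without Y41F library 2 (1.77%). Without WT library 1 or WT library 2 edgeR called none of the 9 and 0% of all genes, and at an unadjusted p under 0.05 it gave 3 of the 9, all higher in Y41F, in both cases, against 2.42% of all genes higher without WT library 1 and 3.61% without WT library 2. Since this contrast was used to choose the genes, nothing is read from these counts against the background.

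**Figure D1:**
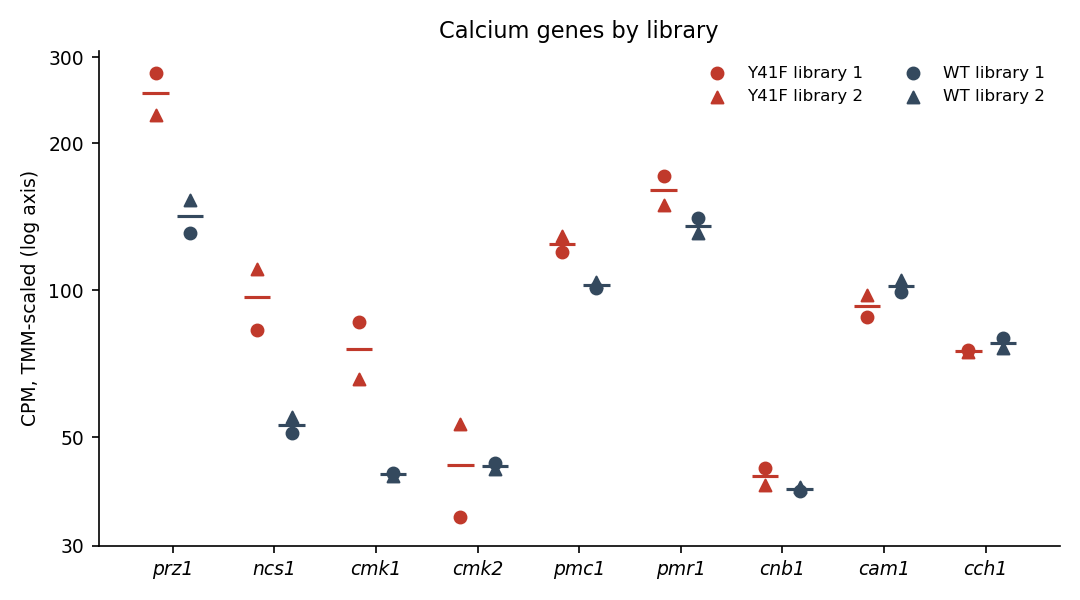
Levels of the 9 calcium genes in each library, in TMM-scaled CPM on a log axis, with Y41F in red at the left and WT in dark blue at the right of each gene; circles are library 1, triangles library 2 and bars the mean of 2 libraries. For prz1, ncs1 and cmk1 both Y41F points lie above both WT points, while the Y41F points of cmk2, at 34.3 and 53.3 CPM, enclose those of WT.

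The transcription factor gene prz1 had 278 and 228 CPM in Y41F libraries 1 and 2, and 131 and 153 CPM in WT libraries 1 and 2. Both Y41F libraries lay above both WT libraries, and the lowest Y41F value was well clear of the highest WT one. The means were 253 ± 35.6 CPM in Y41F and 142 ± 15.4 CPM in WT (SD, n = 2 each). The log2 fold change was 0.84 ± 0.14 (SE; edgeR adjusted p = 0.283), higher than or equal to that of 98.4% of genes tested.

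The gene ncs1 encodes the yeast neuronal calcium sensor, a membrane-attached EF-hand protein that is needed for growth in high calcium. It had 82.9 and 111 CPM in Y41F libraries 1 and 2, and 51.1 and 55.0 CPM in WT libraries 1 and 2. The groups did not overlap, and Y41F library 2 was the highest of the 4. Means of 96.8 ± 19.6 CPM in Y41F and 53.0 ± 2.74 CPM in WT (SD, n = 2 each) gave a log2 ratio of 0.87 ± 0.15 (SE; edgeR adjusted p = 0.283).

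The kinase gene cmk1, for a calcium/calmodulin-dependent protein kinase, had 86.0 and 65.6 CPM in Y41F libraries 1 and 2, and 42.2 and 41.7 CPM in WT libraries 1 and 2. The WT libraries were nearly equal and both Y41F libraries lay above them, with library 1 the highest. The log2 fold change was 0.85 ± 0.15 (SE; edgeR adjusted p = 0.283).

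The other kinase gene, cmk2, encodes a kinase annotated as activated by a MAP kinase. It had 34.3 and 53.3 CPM in Y41F libraries 1 and 2, and 44.4 and 43.1 CPM in WT libraries 1 and 2. Y41F library 1 was the lowest and Y41F library 2 the highest of the 4, so the groups overlapped completely. Means of 43.8 ± 13.4 CPM in Y41F and 43.7 ± 0.882 CPM in WT (SD, n = 2 each) left a log2 ratio of 0.002 ± 0.21 (SE; edgeR adjusted p = 0.999), whose sign differed between scalings. The Y41F libraries lay farther apart than the group means.

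The pump gene pmc1 encodes a P-type ATPase that moves calcium into the vacuole. It had 120 and 129 CPM in Y41F libraries 1 and 2, and 101 and 104 CPM in WT libraries 1 and 2. The groups did not overlap and the libraries of each lay close together. The log2 fold change was 0.28 ± 0.08 (SE; edgeR adjusted p = 0.550).

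The pump gene pmr1 encodes the P-type ATPase that supplies calcium and manganese to the secretory pathway. It had 171 and 149 CPM in Y41F libraries 1 and 2, and 140 and 131 CPM in WT libraries 1 and 2. Y41F library 2 lay just above WT library 1, so the separation was narrow. The log2 fold change was 0.24 ± 0.10 (SE; edgeR adjusted p = 0.757).

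Calcineurin is a dimer of a catalytic subunit, encoded by ppb1, and the regulatory EF-hand subunit encoded by cnb1. For cnb1 the values were 43.4 and 39.9 CPM in Y41F libraries 1 and 2, and 38.8 and 39.5 CPM in WT libraries 1 and 2. The groups were separated by less than the difference between the Y41F libraries, with a log2 ratio of 0.09 ± 0.10 (SE; edgeR adjusted p = 0.892). For ppb1 (SPBP4H10.04), which is not 1 of the 9, the means were 154 ± 14.6 CPM in Y41F and 154 ± 3.88 CPM in WT (SD, n = 2 each). The level of cnb1 was 0.880 and 0.927 times the FPKM of ppb1 in Y41F libraries 1 and 2, and 0.854 and 0.840 times in WT libraries 1 and 2. By deposited FPKM, transcripts of the subunits were thus at like levels in each library.

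The calmodulin gene cam1 had 88.1 and 97.8 CPM in Y41F libraries 1 and 2, and 99.1 and 105 CPM in WT libraries 1 and 2. Both Y41F values lay below both WT values on this scale, but on the deposited FPKM scale the groups overlapped, with 206 and 230 FPKM in Y41F libraries 1 and 2 and 219 and 244 FPKM in WT libraries 1 and 2. The log2 fold change was -0.13 ± 0.09 (SE; edgeR adjusted p = 0.825).

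The channel gene cch1, for the pore subunit of the plasma membrane calcium channel, had 75.5 and 74.6 CPM in Y41F libraries 1 and 2, and 80.0 and 76.2 CPM in WT libraries 1 and 2. The 4 libraries lay close together. Y41F lay below WT with a log2 ratio of -0.06 ± 0.08 (SE; edgeR adjusted p = 0.913).

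Of the 9 fold changes, 7 were above 0 and 2 below it, counting the near-zero value of cmk2 as above, with a median of 0.24. Over all 5076 genes the median was near 0 and 48.7% were above 0, and the central range between percentiles 5 and 95 ran from -0.26 to 0.43. The values of prz1, ncs1 and cmk1 lay beyond that range and those of the other 6 within it. In CPM the groups did not overlap with Y41F higher for 6 of the 9 genes, against 19.2% of all genes, and with Y41F lower for 2, against 18% of all genes.

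**Figure D2:**
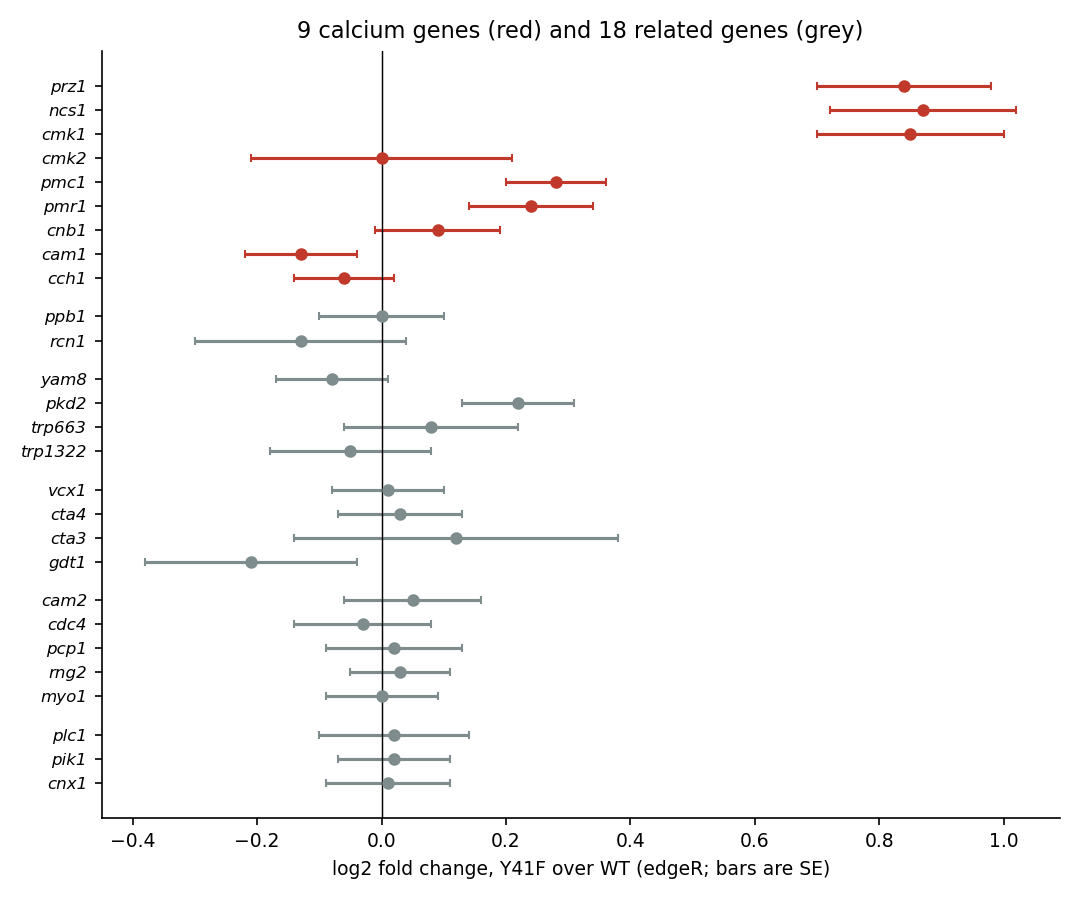
Log2 fold changes, Y41F over WT, from the edgeR fit over all genes, with bars of 1 SE: the 9 calcium genes in red and, in grey, 18 further genes listed by name as related to calcium, grouped as calcineurin, channels, exporters and exchangers, EF-hand and calmodulin-binding proteins, and phosphoinositide or endoplasmic reticulum partners. The values of prz1, ncs1 and cmk1 lie between 0.84 and 0.87, and the grey ones between -0.21 and 0.22.

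The 2 Y41F libraries, which come from differently named strains, did not place the 9 genes alike. From library 1 to library 2 of Y41F the log2 CPM ratio was -0.29 for prz1 and -0.39 for cmk1, but 0.42 for ncs1 and 0.64 for cmk2. The corresponding ratios between the WT libraries were 0.22 for prz1, -0.02 for cmk1, 0.11 for ncs1 and -0.04 for cmk2. Thus prz1 and cmk1 were higher in Y41F library 1, and ncs1 and cmk2 in Y41F library 2.

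The error of these ratios from counting alone was between 0.03 and 0.07 for all 9 genes, so the Y41F differences of these 4 genes were larger than counting error. Those of pmr1, cam1, cnb1 and pmc1 were also larger than their counting error, and that of cch1 was not. Among all genes above 0 in each library, the size of the Y41F library difference of cmk2 was at or above that of 95.1%, that of ncs1 at or above 90.3%, that of cmk1 88.8% and that of prz1 81.8%. The other 5 genes differed between the Y41F libraries by at most 0.20 in size, against a median size of 0.13 over all genes. The within-group differences of pmc1 were 0.10 in Y41F and 0.04 in WT, both below its difference of 0.28 between the groups. For pmr1 they were -0.20 in Y41F and -0.10 in WT, against 0.24 between the groups.

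**Figure D3:**
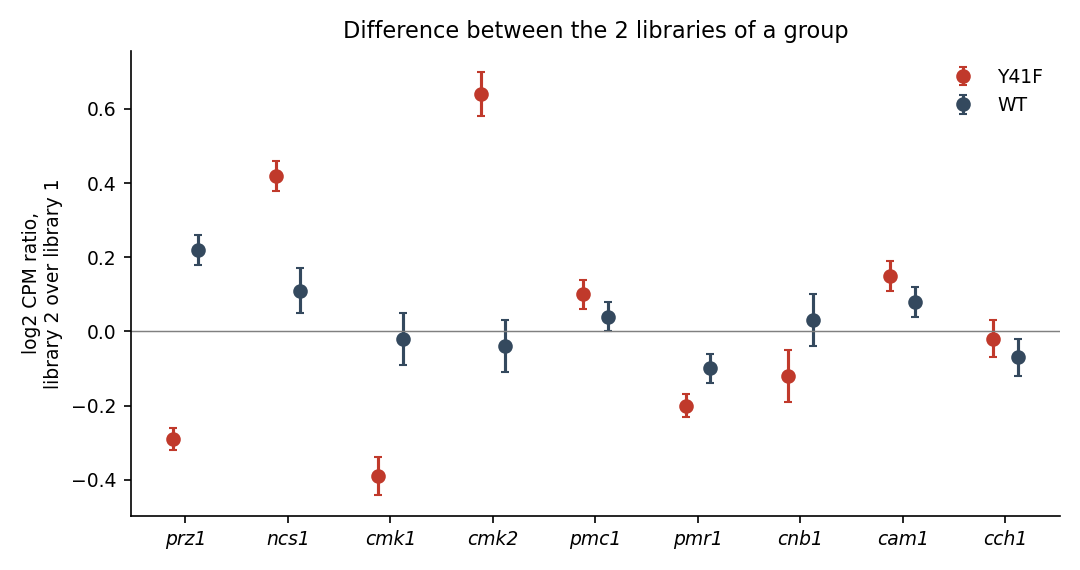
Log2 ratio of CPM in library 2 over library 1 within Y41F (red, left) and within WT (dark blue, right) for each of the 9 genes; bars are the standard error from counting alone. The Y41F ratios run from -0.39 for cmk1 to 0.64 for cmk2, and the WT ratios from -0.10 for pmr1 to 0.22 for prz1.

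Because of these differences, the sizes of the fold changes depended on which Y41F library was kept. Without Y41F library 1 the log2 fold changes were 0.69 for prz1, 1.07 for ncs1 and 0.65 for cmk1, with edgeR adjusted p of 0.0243, 0.00115 and 0.0387. Without Y41F library 2 they were 0.97, 0.64 and 1.04, with edgeR adjusted p of 0.00249, 0.0130 and 0.000787. In both cases a single Y41F library is assumed to vary as the WT libraries do. The WT log2 ratio of library 2 over library 1 was 0.11 for ncs1 and -0.02 for cmk1, but 0.22 for prz1. Why these genes were called in these fits was not tested.

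Leaving out a WT library gave log2 fold changes of 0.73 and 0.95 for prz1, 0.82 and 0.92 for ncs1, and 0.87 and 0.84 for cmk1 (without WT library 1 and 2 in turn), with no call (edgeR adjusted p from 0.618 to 1.00). For cmk2 the log2 fold change was 0.29 without Y41F library 1 and -0.35 without Y41F library 2, so its direction was set by the choice of library. For pmc1 it stayed between 0.23 and 0.34 and for pmr1 between 0.15 and 0.34 as each of the 4 libraries was left out in turn.

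**Figure D4:**
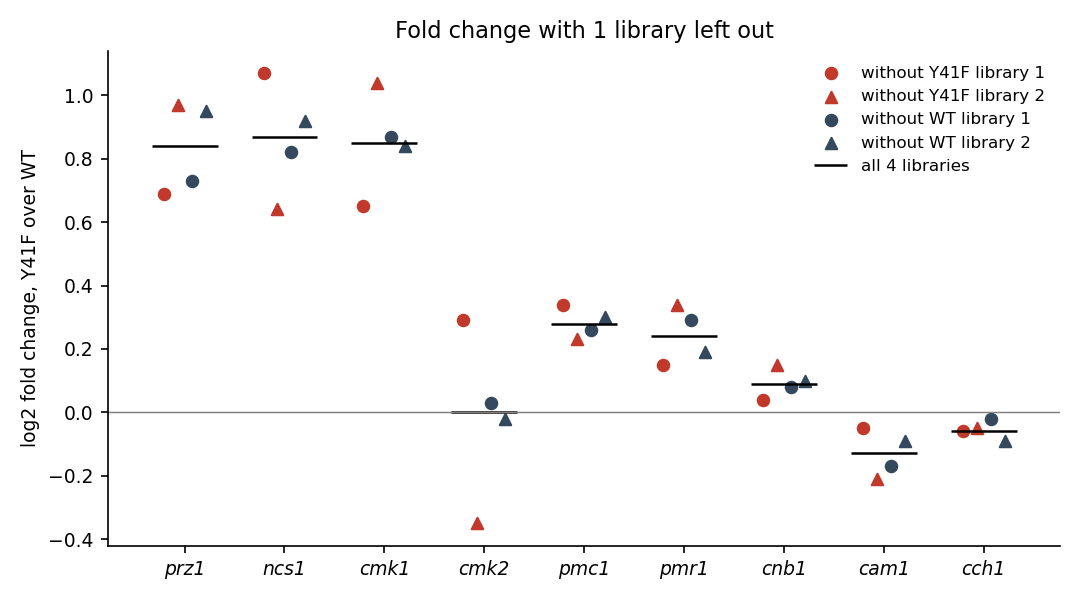
Log2 fold change, Y41F over WT, of each of the 9 genes with 1 library left out (points; red for a Y41F library, dark blue for a WT library) and with all 4 libraries (black bars). The values of prz1, ncs1 and cmk1 stay between 0.64 and 1.07, while those of cmk2 run from -0.35 to 0.29.

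By deposited FPKM, calmodulin was the most abundant transcript of the 9 and the channel the least. The gene cam1 averaged 218 ± 16.9 FPKM in Y41F and 232 ± 17.8 FPKM in WT (SD, n = 2 each), and cch1 averaged 13.3 ± 0.0566 FPKM in Y41F and 13.4 ± 0.0424 FPKM in WT. The level of cam1 was 15.5 and 17.4 times that of cch1 in Y41F libraries 1 and 2, and 16.4 and 18.2 times in WT libraries 1 and 2. In WT, 87.6% of all genes lay at or below the level of cam1 and 9.7% at or below that of cch1.

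The order of the 9 genes by mean FPKM in Y41F was cam1, ncs1, prz1, cnb1, cmk1, pmr1, pmc1, cmk2 and cch1, in which cnb1 overlapped with cmk1 and pmc1 with cmk2. In WT the order was cam1, ncs1, cnb1, prz1, pmr1, cmk1, cmk2, pmc1 and cch1, in which only the neighbours cnb1 and prz1 overlapped between libraries. The places that differ are those of prz1 against cnb1, cmk1 against pmr1, and pmc1 against cmk2.

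**Figure D5:**
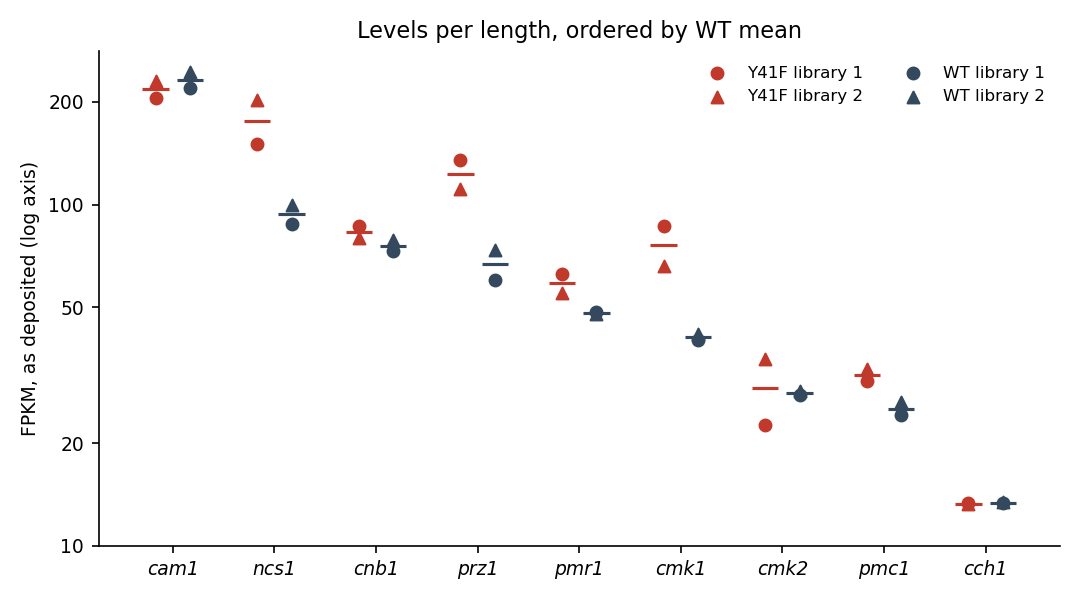
Deposited FPKM of the 9 genes in each library on a log axis, ordered by the WT mean, with Y41F in red at the left and WT in dark blue at the right; circles are library 1, triangles library 2 and bars the mean of 2 libraries. The calmodulin gene cam1 is highest, from 206 to 244 FPKM, and the channel gene cch1 lowest, from 13.2 to 13.4 FPKM.

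The gene prz1 averaged 123 ± 16.8 FPKM in Y41F, where 75.8% of genes lay at or below it, and 66.9 ± 9.74 FPKM in WT, where 56.2% did (SD, n = 2 each). For ncs1 the means were 176 ± 36.4 FPKM in Y41F and 93.6 ± 8.34 FPKM in WT. Calmodulin and the calcium sensor were thereby closer in Y41F, with cam1 at 1.37 and 1.14 times ncs1 in Y41F libraries 1 and 2, and at 2.50 and 2.45 times in WT libraries 1 and 2.

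The ratio of the kinases, cmk1 over cmk2 in FPKM, was 3.81 and 1.87 in Y41F libraries 1 and 2, and 1.45 and 1.47 in WT libraries 1 and 2. It was higher in both Y41F libraries but far apart between them. The pump genes kept a similar ratio, with pmr1 over pmc1 at 2.06 and 1.67 in Y41F libraries 1 and 2, and at 2.01 and 1.82 in WT libraries 1 and 2.

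Of 19 further genes listed by name as related to calcium, 18 were found and tested, and none was called (edgeR adjusted p from 0.764 to 1.00), against 0.0197% of all genes. At an unadjusted p under 0.05 the fit gave 0 of the 18, against 6.7% of all genes. Their log2 fold changes had a median of 0.02, with 12 above 0 and 6 below it. The groups did not overlap in CPM for 1 of them with Y41F higher, against 19.2% of all genes, and for 1 with Y41F lower, against 18% of all genes. These names too were chosen with earlier results of these data known, so nothing is read from these counts against the background.

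The gene pkd2, for a TRP-like channel of the plasma membrane, was the one with Y41F higher, at 137 and 155 CPM in Y41F libraries 1 and 2, and 123 and 128 CPM in WT libraries 1 and 2. Its log2 fold change was 0.22 ± 0.09 (SE; edgeR adjusted p = 0.764). The one with Y41F lower was yam8, for the partner subunit of the Cch1 channel, at 78.8 and 79.1 CPM in Y41F libraries 1 and 2, and 86.5 and 79.9 CPM in WT libraries 1 and 2. Its log2 fold change was -0.08 ± 0.09 (SE; edgeR adjusted p = 0.892). Both this value and the -0.06 ± 0.08 of cch1 lay within their SE of 0.

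The calcipressin gene rcn1, for a calcineurin regulator, had -0.13 ± 0.17 on the log2 scale and ppb1 had 0.00 ± 0.10. The exchanger gene vcx1, which acts beside Pmc1 at the vacuole, had 0.01 ± 0.09. The ATPase genes cta4 and cta3 had 0.03 ± 0.10 and 0.12 ± 0.26, and gdt1 had -0.21 ± 0.17, the lowest of the 18. Which ions the products of cta4 and cta3 move was not examined here. The 5 genes for EF-hand light chains and calmodulin-binding proteins, cam2, cdc4, pcp1, rng2 and myo1, lay between -0.03 and 0.05. The phospholipase C gene plc1, the phosphatidylinositol 4-kinase gene pik1, whose product is bound by the Ncs1 homologue in budding yeast, and the calnexin gene cnx1 lay between 0.01 and 0.02.

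In the ASM294v3 annotation, used here for names and neighbours, pmc1 and cch1 lie near each other with 3 genes of the tables between them, vma5, SPAPB2B4.06 and SPAPB2B4.07. Those 3 had log2 fold changes of 0.01 ± 0.09, 0.04 ± 0.17 and -0.01 ± 0.13, against 0.28 for pmc1 and -0.06 for cch1. The neighbours on either side of prz1, smp3 and SPAC16C9.01c, had -0.06 ± 0.10 and 0.09 ± 0.15. Those of cmk1, mdv1 and kha1, both had values that rounded to 0.00, with SE of 0.12 and 0.09. Farther out, gos1 and mta1 near prz1 had 0.24 ± 0.12 and -0.24 ± 0.12. Likewise, amt2 and ank1 near cmk1 had -0.01 ± 0.08 and 0.05 ± 0.11.

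The genes adjacent to ncs1 lay farther from 0 than those adjacent to prz1 and cmk1, though not all lay farther than gos1 and mta1. The adjacent gene SPAC18B11.03c, annotated as an N-acetyltransferase and on the opposite strand, had 58.2 and 60.7 CPM in Y41F libraries 1 and 2, and 35.9 and 40.0 CPM in WT libraries 1 and 2. The groups did not overlap, and its Y41F libraries were almost equal, unlike those of ncs1. Its log2 fold change was 0.65 ± 0.10 (SE; edgeR adjusted p = 0.261). On the other side, gpi18 had 0.22 ± 0.11. The next genes outward, lcp5 and pus9, had -0.32 ± 0.26 and -0.18 ± 0.08. For lcp5 the groups overlapped, and the log2 CPM ratio of Y41F library 2 over library 1 was 0.80. Values away from 0 were also found near others of the 9, in both directions. Near pmr1, pep12 had 0.31 ± 0.09, and near cch1, nog2 had -0.46 ± 0.25. The Y41F libraries of nog2 were far apart, at 122 and 207 CPM, against 245 and 209 CPM in WT libraries 1 and 2. In FPKM the groups of nog2 overlapped.

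No source used here says if reads were counted by strand. Of the 9 genes, 6 overlap an annotated long non-coding RNA on the opposite strand (prz1, cmk1, pmc1, pmr1, cnb1 and cch1), and pmc1 and cch1 also overlap the coding genes cig2 and pof5 on the opposite strand. The part of antisense reads in these values was not tested. The genes ncs1, cmk2 and cam1 overlap no annotated gene.

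Genes whose profile over the 4 libraries was among the 3 most like that of prz1, by the distance between mean-centred log2(CPM + 1) values among genes averaging 5 CPM or more, include SPAC1952.04c and SPBC15C4.06c, at distances of 0.148 and 0.168. They are annotated as an uncharacterised fungal protein and a ubiquitin ligase. The kinase gene cmk1 came in place 5, at 0.182, and ncs1 in place 92, at 0.501. As prz1, cmk1 and ncs1 were chosen with their Y41F against WT values known, nothing is read from these places.

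The genes most like ncs1 were fmc1, SPAC750.01 and SPCC330.03c, at 0.029, 0.094 and 0.138, annotated as an ATP synthase assembly factor, an aldo/keto reductase and a cytochrome b5 reductase. Being picked for likeness to ncs1 over these libraries, each of the 3 was higher in Y41F library 2 than in library 1, by log2 ratios between 0.40 and 0.48. These distances rest on 4 libraries and describe them only. The counts of SPAC750.01 were fractional in every library, so some of its reads may belong to other genes.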

How the data were processed

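The authors deposited a gene table per library with an expected count and an FPKM value per gene and a gene length, per the file headers. Bowtie, BWA and RSEM and the build ASM294v2 are given in the submitters' processing notes, with no version or role. All lengths are multiples of 3 and so coding lengths. Genes missing from 1 table and listed in another were taken as 0. Identifiers were matched without regard to case to the ASM294v3 annotation (5100 of 5133), used for names and neighbours only.

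Expected counts were rounded and tested with edgeR 4.0.16 in R 4.3.3 (quasi-likelihood, TMM, default filter, which removed 57 genes), with Benjamini-Hochberg adjustment over all genes and a threshold of 0.05. SE is the size of the log2 fold change divided by the square root of F. DESeq2 1.42.0, limma 3.58.1 on log2(FPKM + 1) and log2(FPKM + 5), other scalings and filters, a replicate block and each library left out were alternatives.

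The 9 genes and the 19 names of related genes were chosen with earlier results of these data known; cax1 was not analysed here. All 9 genes and, for prz1 and ncs1, the 3 nearest profiles were to be named, of which 1 is not reported here; neighbours were added after their values were seen. Counting errors cover counting only.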

Additional observations from a re-analysis of the deposited data

How the results depend on the processing

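The count of genes called over all genes was 1 with all 4 libraries. It was 3 with limma on log2(FPKM + 1), 68 with DESeq2 and between 0 and 197 with 1 library left out. The count among the 9 calcium genes was 0 with all 4 libraries, 3 with DESeq2 and between 0 and 3 with 1 library left out. Libraries with the same number share only that number. Their deviations from the group means correlated at 0.45 across genes. With 2 libraries per group both pairs give this same value, so it counts once. With the replicate number as a block 87 genes were called, 77 of them higher, and 3 of the 9. The 3 were prz1, ncs1 and cmk1 wherever 3 were called. The value of cmk2 fell below 0 with DESeq2 size factors in edgeR and with the DESeq2 test (both -0.0002), with the replicate block (-0.03), without WT library 2 (-0.02) and without Y41F library 2 (-0.35, edgeR adjusted p = 0.313), and with 1 library left out it ran from -0.35 to 0.29. The cause was not tested. The other 8 genes kept their sign in all 12 alternatives; of 108 alternative values for the 9 genes, 91 kept sign and side of the threshold and 12 passed it with the same sign. Library size as the only scaling moved the median of all genes to 0.04 and left prz1, ncs1 and cmk1 at 0.88, 0.91 and 0.90. Counting errors were below the Y41F library differences of the 9 genes except cch1. They were above some differences between libraries of a group, such as that of cch1 in Y41F (-0.02, counting error 0.05).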
